A study of Mus musculus and Homo sapiens with 15 samples.

Results

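Edit clusters in the introns of genes that held several of them were described in mouse brain slices in which cytosines had been deaminated next to the RNA-binding protein RBFOX2. An edit cluster is a short stretch of RNA in which C-to-U edits are concentrated. The clusters come from the RBFOX2-INSCRIBE list that remained after the slices' 3 replicate lists were intersected and background clusters had been removed. A cluster was included when its deposited label named no exon and when the first gene of that label had 3 or more such clusters. The rule took 1399 of 5031 clusters, carried by 209 labels. Edited reads chose these clusters, so their edits in RBFOX2-INSCRIBE libraries are given below as a description, without a test.

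In INSCRIBE, a rabbit antibody finds the protein of interest in fixed tissue, and a purified fusion of the cytidine deaminase APOBEC1 to a nanobody against rabbit antibodies then edits nearby RNA in place. All 9 brain libraries came from whole coronal sections of female wild-type C57BL/6J mice, which were 2 months old, and each library was made from 1 slice. RBFOX2-INSCRIBE slices (n = 3) received antibody and enzyme, enzyme-only slices (n = 3) received the enzyme without the antibody, and buffer-only slices (n = 3) received neither. The labels give paraformaldehyde as the fixative, the study used 2 mice in all, and the labels do not say which slice came from which animal, so p-values measure only the spread between these slices. A slice mixes all brain cell types, and fewer cells of a type and less RNA per cell cannot be told apart in such a sample.

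RBFOX1, RBFOX2 and RBFOX3 are splicing factors with nearly the same RNA recognition motif, which binds the sequence UGCAUG in nascent transcripts. In neurons they set the inclusion of many alternative exons in ion channels, synaptic proteins and cytoskeletal proteins, and the position of the bound intron relative to the exon sets whether the exon is kept or skipped. Many bound introns lie far from any exon, and nuclear RBFOX is also known to sit in large assemblies with other splicing regulators on intronic RNA. APOBEC1 prefers a cytosine that follows A or U.

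The letters of 7 clusters are shown because they were among the most edited clusters that hold the motif, and because the edits can be read against the motif in them. They are written 5′ to 3′ on the strand of the gene from the RefSeq GRCm38 (mm10) genome, with T for U, and capitals mark UGCAUG. The cluster of Ttc3, which encodes a ubiquitin ligase, is chr16:94400916-94401035 on the plus strand. That of Rbfox1 is chr16:7293568-7293672 (plus), and that of the synaptic scaffold gene Magi2 is chr5:19402677-19402781 (plus). That of the potassium channel gene Kcnh7 is chr2:62844931-62845035 (minus), and that of Rap1gap, which encodes a GTPase-activating protein, is chr4:137722873-137723052 (plus). That of the adhesion gene Tenm2 is chr11:36812163-36812357 (minus). That of Agtpbp1, which encodes a carboxypeptidase acting on tubulin, is chr13:59525750-59525959 (minus).
Ttc3: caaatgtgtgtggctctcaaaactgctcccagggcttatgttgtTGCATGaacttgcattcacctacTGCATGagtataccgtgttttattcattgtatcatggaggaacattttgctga
Rbfox1: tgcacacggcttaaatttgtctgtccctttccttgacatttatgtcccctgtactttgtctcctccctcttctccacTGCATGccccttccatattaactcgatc
Magi2: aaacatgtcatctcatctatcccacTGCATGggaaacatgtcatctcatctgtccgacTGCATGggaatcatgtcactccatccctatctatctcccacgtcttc
Kcnh7: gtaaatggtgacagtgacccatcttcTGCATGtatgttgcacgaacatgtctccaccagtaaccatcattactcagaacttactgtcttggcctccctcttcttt
Rap1gap: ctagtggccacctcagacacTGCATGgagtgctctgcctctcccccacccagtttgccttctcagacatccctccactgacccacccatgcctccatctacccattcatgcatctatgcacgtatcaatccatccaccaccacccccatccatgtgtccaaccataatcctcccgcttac
Tenm2: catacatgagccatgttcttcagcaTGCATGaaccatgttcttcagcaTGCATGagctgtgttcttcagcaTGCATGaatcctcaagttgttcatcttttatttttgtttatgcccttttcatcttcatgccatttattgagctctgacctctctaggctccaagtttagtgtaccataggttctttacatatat
Agtpbp1: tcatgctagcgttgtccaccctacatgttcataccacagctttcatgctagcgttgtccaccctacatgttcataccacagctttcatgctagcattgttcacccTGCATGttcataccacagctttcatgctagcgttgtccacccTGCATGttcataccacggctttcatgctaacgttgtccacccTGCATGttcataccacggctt

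Positions are counted from 1 at the 5′ end of each line. In Ttc3, the C at position 67, directly before the second motif, carried 4, 4 and 6 edited reads in the RBFOX2-INSCRIBE libraries, of 27, 27 and 21 reads that covered it, and was not listed in any enzyme-only or buffer-only library. In Rbfox1, the C at position 77, directly before the motif, carried 3, 7 and 1 edited reads of 41, 36 and 37 in the RBFOX2-INSCRIBE libraries, none in the enzyme-only libraries, and 1 of 38 in buffer-only replicate 1. In Magi2, the C at position 58 carried 2, 5 and 3 edited reads and the C at position 25 carried 1, 2 and 3, each directly before a motif and each in RBFOX2-INSCRIBE libraries alone. These 3 clusters were thus edited most at the base that precedes the motif. In Kcnh7 and Rap1gap the C before the motif (positions 26 and 20) carried 4 edited reads, as many as the other most edited positions of those clusters. The most edited position lay 7 nt from the nearest motif in Tenm2. Agtpbp1, a tandem repeat, showed the opposite of Magi2: the C before each of its 3 motifs was listed in no library. Its 17 edited positions in RBFOX2-INSCRIBE libraries lay 3 to 104 nt from the nearest motif, many of them 5′ of the first motif.

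The clusters lay mostly in long genes. They were assigned to 210 host genes, of which 200 code for protein. The host was the longest protein-coding gene of the label (GENCODE M21) that covered the cluster on its strand, or else the longest of any type. Where none covered it, the first gene of the label was kept, and 40 clusters lay beyond the annotated bounds of the labelled gene. A host was chosen because labels can name several genes: those of 955 clusters did. For 84 labels with 682 clusters the first gene named was another than the host. Host genes had a median length of 490.1 kb, weighted by cluster, against 90.7 kb for the 896 intronic clusters of sparsely clustered labels and 52.0 kb for the 2736 clusters with an exon in the label. Of the labels, 68 had exactly 3 clusters, 49 had 4, 59 had 5 to 9, and 33 had 10 or more, and those 33 held 631 clusters (45.1%). Just outside the rule, 165 labels had exactly 2 clusters, with a median deposited depth of 74.7 reads and a median host length of 114.7 kb, compared with 105.4 reads and 205.1 kb at the 68 labels with exactly 3.

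The gene with the most clusters was Celf2, which encodes an RNA-binding splicing regulator, with 47 clusters over 812.9 kb. Their edited reads summed to 47, 49 and 70 in the RBFOX2-INSCRIBE libraries, 13, 2 and 8 in the enzyme-only libraries and 7, 6 and 3 in the buffer-only libraries. Rbfox1 itself was second with 46 clusters (62, 73 and 67 edited reads in RBFOX2-INSCRIBE slices, 4, 9 and 4 in enzyme-only slices, 9, 9 and 5 in buffer-only slices), and Dpp10, which encodes a potassium channel auxiliary subunit, followed with 43 (55, 47 and 68, against 5, 5 and 8 in enzyme-only slices and 3, 4 and 5 in buffer-only slices). In all 3 genes the lowest RBFOX2-INSCRIBE library was far above the highest library of either control. Of the Dpp10 clusters, 37 lay beyond the ends of the gene as GENCODE M21 draws it.

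Among the next genes by number were Kcnma1, the large-conductance calcium-activated potassium channel (28 clusters), Csmd1, which encodes a complement-regulating membrane protein (27), the potassium channel interactor Kcnip4 (25), the presynaptic adhesion gene Nrxn3 (23), the protocadherin gene Pcdh9 (23), the postsynaptic scaffold gene Dlg2 (22), the adhesion gene Cadm2 (21) and the growth factor gene Nrg3 (21). Kcnma1 clusters held 60, 57 and 70 edited reads in RBFOX2-INSCRIBE slices, 5, 10 and 4 in enzyme-only slices and 6, 4 and 2 in buffer-only slices. Dlg2 clusters held 34, 15 and 46 in RBFOX2-INSCRIBE slices, 7, 1 and 1 in enzyme-only slices and 4, 4 and 3 in buffer-only slices, so RBFOX2-INSCRIBE replicate 2 was the lowest of its group. Kcnip4 had the largest control signal of these 8 relative to its own (29, 23 and 41, against 10, 8 and 3 in enzyme-only slices and 2, 8 and 3 in buffer-only slices). At 42 of the 209 labels no enzyme-only library had an edited read in the clusters, and the share over all labels of the list was not taken.

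**Figure D1:**
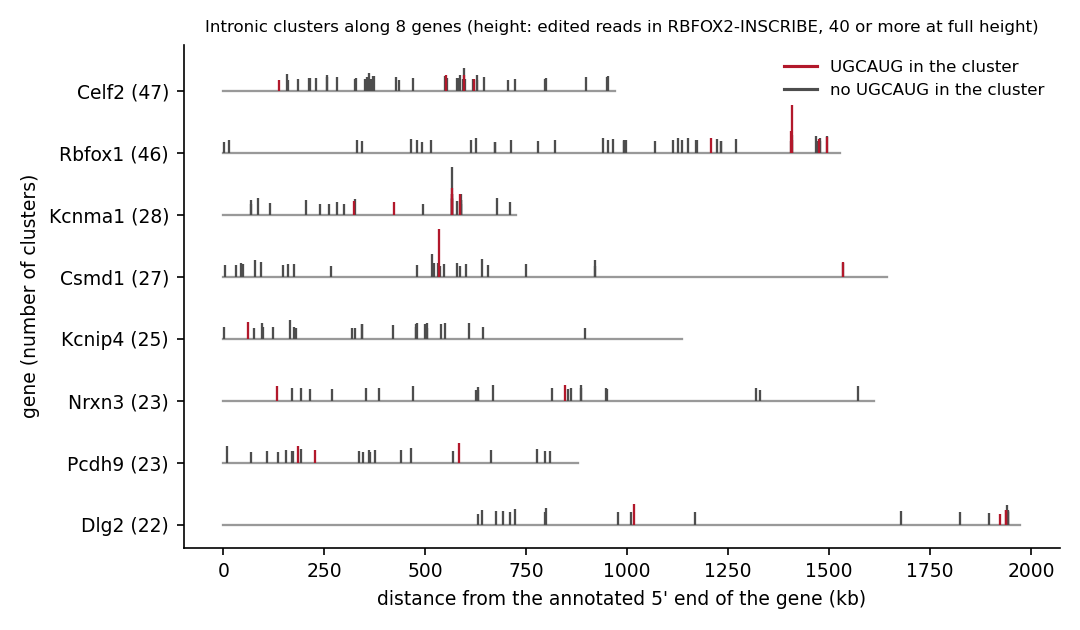
Intronic clusters along 8 host genes. The x axis gives the distance from the annotated 5′ end of the gene in kb, each vertical line is a cluster, and its height is the number of edited reads in the 3 RBFOX2-INSCRIBE libraries together, drawn at full height from 40 reads on; red lines hold UGCAUG, dark grey lines do not, and numbers after the gene names are clusters. Clusters are spread over 812.9 kb in Celf2.

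All 3 RBFOX genes were among the hosts, with 61 clusters. Rbfox2 had 11 clusters, whose edited reads summed to 63 in RBFOX2-INSCRIBE slices, 2 in enzyme-only slices and 8 in buffer-only slices, and 2 of them held UGCAUG. Rbfox3, the gene of the neuronal marker NeuN, had 4 clusters with 13 edited reads in RBFOX2-INSCRIBE slices, 1 in enzyme-only slices and 0 in buffer-only slices. The most edited cluster of Rbfox1 lay in its intron 13, 397 nt from an exon, and had 12, 25 and 5 edited reads in RBFOX2-INSCRIBE slices, 2, 0 and 1 in enzyme-only slices and 1, 0 and 0 in buffer-only slices. RNA-binding and splicing genes as a list, which also holds Celf2 and Mbnl2, gave 7 hosts of 21 genes with 68 clusters. As a background to this and the following lists, 207 of the 6345 genes with enough edited reads for the gene test below were hosts. The lengths of listed genes were not compared with those of other genes, so no enrichment is read from the lists.

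Of the lists, voltage-gated sodium and potassium channel genes gave 9 hosts of 23 genes the most clusters, 139, of which 20 held UGCAUG. Voltage-gated calcium channel genes gave 6 hosts of 10 and 25 clusters. Kcnh7 had 8 clusters (69 edited reads in RBFOX2-INSCRIBE slices, 3 in enzyme-only slices, 1 in buffer-only slices) and Cacna1a, the pore of P/Q-type channels, had 7 (21, against 1 in enzyme-only slices and 4 in buffer-only slices). Calcium release, pump and calcineurin genes gave 5 hosts of 21 with 23 clusters, among them Ppp3ca, the catalytic subunit of calcineurin, with 3 clusters (9 edited reads in RBFOX2-INSCRIBE slices, 0 in enzyme-only slices, 1 in buffer-only slices).

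Synaptic genes were present on both sides of the synapse. Neurexin, neuroligin and teneurin adhesion genes gave 8 hosts of 21 genes and 109 clusters, presynaptic and vesicle genes 9 of 18 and 98 clusters, and postsynaptic scaffold genes 9 of 16 and 67 clusters. Snap25, a SNARE protein of vesicle fusion, had 14 clusters within short distances (median gap 0.21 kb), with 37, 35 and 59 edited reads in RBFOX2-INSCRIBE slices, 5, 4 and 3 in enzyme-only slices and 0, 3 and 1 in buffer-only slices. Ionotropic glutamate receptor genes gave 4 hosts of 15 with 21 clusters, of which the NMDA receptor gene Grin2b had 9 (56 edited reads in RBFOX2-INSCRIBE slices, 3 in enzyme-only slices, 4 in buffer-only slices). Cytoskeleton and motor genes gave 6 hosts of 18 and 31 clusters. Klc1, which encodes a kinesin light chain, had 4 of these (72 edited reads in RBFOX2-INSCRIBE slices, 10 in enzyme-only slices, 10 in buffer-only slices).

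Markers of cell types other than neurons were nearly absent among the hosts. Of 10 astrocyte markers 1 was a host, Slc1a2, the glial glutamate transporter, with 19 clusters (128 edited reads in RBFOX2-INSCRIBE slices, 43 in enzyme-only slices, 20 in buffer-only slices). No oligodendrocyte (10 genes), microglia (8) or endothelial marker (7) was a host, while 4 of 8 neuron markers were, with 39 clusters. Hosts were mostly long genes, and the lengths of the markers were not compared. No preference for a cell type is therefore read from these counts. Outside the clusters, edits in the marker genes were listed in every library, and every marker except Tubb3 had an edited read that could be assigned to it alone.

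The most edited clusters were wider than the rest and in some of them the controls were edited as much. An intronic cluster of 510 nt in the splicing regulator gene Nova1 had 78, 110 and 84 edited reads in RBFOX2-INSCRIBE slices, 86, 83 and 63 in enzyme-only slices and 141, 66 and 78 in buffer-only slices, so the groups overlapped. Clusters in Nptn (15, 24 and 7 in RBFOX2-INSCRIBE slices, 15, 9 and 13 in enzyme-only slices, 18, 10 and 8 in buffer-only slices) and Acap3 (10, 14 and 12 in RBFOX2-INSCRIBE slices, 8, 5 and 7 in enzyme-only slices, 13, 13 and 7 in buffer-only slices) were also edited in buffer-only slices. By contrast, a 510 nt cluster in intron 14 of the microtubule protein gene Map2 had 35, 15 and 36 edited reads in RBFOX2-INSCRIBE slices, 1, 4 and 4 in enzyme-only slices and 2, 0 and 2 in buffer-only slices. A 255 nt cluster in intron 5 of Csmd1, with 3 copies of UGCAUG, had 18, 18 and 22, against 2, 1 and 1 in enzyme-only slices and 0, 0 and 1 in buffer-only slices. The Tenm2 cluster printed above had 9, 15 and 26, against 0 in all 3 enzyme-only libraries and 0, 1 and 0 in buffer-only slices. In Klc1, a cluster of 315 nt in intron 13 lay 75 nt from an exon and had 10, 9 and 23 edited reads in RBFOX2-INSCRIBE slices, 2, 2 and 1 in enzyme-only slices and 1, 2 and 1 in buffer-only slices. The 12 most edited clusters held 10.4% of all edited reads that the RBFOX2-INSCRIBE libraries had in the 1399 clusters.

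A typical cluster was narrow and rested on few reads. Lengths ran between 4 and 510 nt with a median of 45 nt, and 920 clusters (65.8%) were exactly 45 nt. In RBFOX2-INSCRIBE replicate 3, whose edges the deposited list carried for 99.5% of clusters, 885 clusters (63.3%) had 1 edited position. Over the 3 RBFOX2-INSCRIBE libraries the median cluster had 3 edited reads, 165 clusters had 10 or more, and 45 had 20 or more. Edited positions seldom recurred: of 4926 distinct positions edited in RBFOX2-INSCRIBE libraries, 743 were listed in exactly 2 libraries and 180 in all 3, together 18.7%. In enzyme-only libraries 779 positions were listed in the same clusters, of which 9.37% recurred, and in buffer-only slices 642, of which 11.2% recurred.

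For most of these clusters the deposited depth was not the number of reads that covered their cytosines. The median deposited depth was 141.3 reads (quartiles 73.9 and 252.2, range 6.05 to 5324), against 70.9 in sparsely clustered introns and 40.9 at clusters with an exon in the label. For the enzyme-only intronic clusters chosen by the same rule it was 164.1 reads. In RBFOX2-INSCRIBE replicate 3, however, a C in these clusters was covered by a median of 23.4 reads (range 4.31 to 124.8), compared with 36.8 reads at clusters with an exon in the label. Deposited depth was thus a median of 6.24 times the cover of a C in the intronic clusters (quartiles 3.33 and 11.95) and 1.02 times at exonic ones (quartiles 0.987 and 1.08). It exceeded the cover of a C in 97.3% of these clusters and in 98.8% of those in sparsely clustered introns. The excess was thus not particular to multi-cluster genes.

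Within most introns the deposited depth varied less than the cover of a C. In 160 introns with at least 3 clusters, the median coefficient of variation was 6.05% for depth and 35.1% for cover, and depth varied less in 155 of them. In intron 9 of Celf2, 15 clusters had depths of 184 to 218 and covers of 17.9 to 50.3. In intron 6 of the neuroligin gene Nlgn1, 14 clusters had depths of 104 to 159 and covers of 5.15 to 60.5. Cadm2 intron 1 went the other way, with coefficients of 39.2% for depth and 32.7% for cover over 19 clusters. In some introns depth was close to cover. Intron 2 of Kcnip4, with 14 clusters, had medians of 31.2 reads for depth and 30.8 for cover, and coefficients of 41.2% and 40.5%. What the deposited depth averages over was not given in the sources used here.

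**Figure D2:**
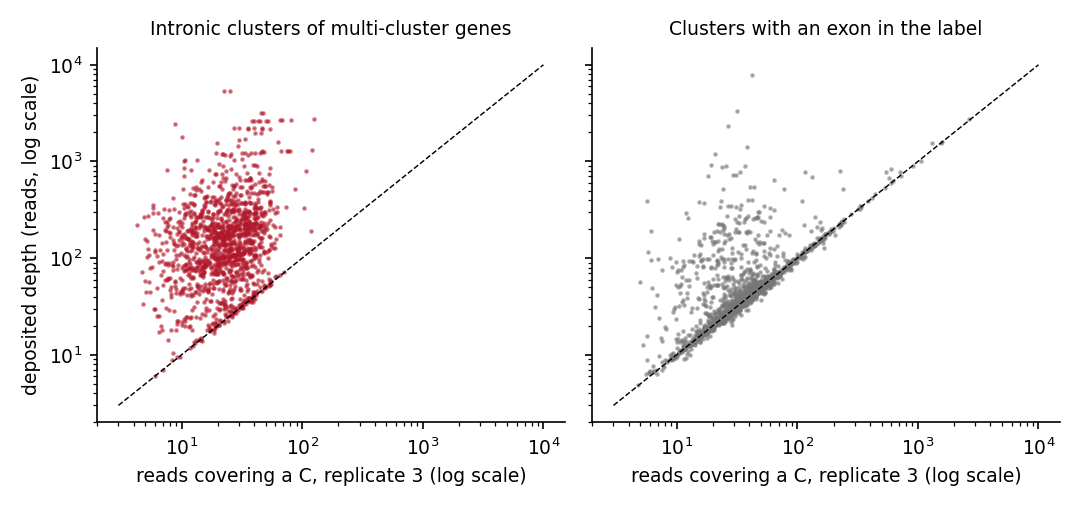
Deposited depth (y axis, reads, log scale) against the mean number of reads covering a C of the cluster in RBFOX2-INSCRIBE replicate 3 (x axis, reads, log scale), for the intronic clusters and for clusters with an exon in the label; each point is a cluster and the dashed line marks equality. Of 1394 intronic clusters 1357 lie above the line, with a median ratio of 6.24 over all, while exonic ones lie close around it, with a median ratio of 1.02.

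Clusters of a gene were close together in part and far apart in part. Between neighbouring clusters of a label, 1190 gaps had a median of 11.8 kb (95% interval of the median 9.61 to 13.2 kb) and a range of 0.03 to 1495 kb. The largest gap lay in Gm20388, which is annotated over 4435 kb and had its 6 clusters in 1 annotated intron. Of all gaps 272 (22.9%) were under 1 kb and 89.5% were under 100 kb. For the 549 enzyme-only clusters chosen by the same rule, which lay in genes with a median length of 594.6 kb, 460 gaps had a median of 20.1 kb and 38 (8.26%) were under 1 kb. The gaps of the 2 sets of clusters were not tested against each other. Clusters per 100 kb of host had a median of 1.89 over labels and were densest in short hosts, Acap3 (25.9), the transporter gene Slc6a17 (25.8) and Thoc7 (23.4). The rule set a lower limit on the number of clusters per label, so a short host could enter only with a high density. No relation of density to host length is therefore read from these values.

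Many clusters shared an intron. The 1355 clusters that could be placed in an annotated intron lay in 589 introns, and 162 introns with 3 or more held 805 of them. The most in 1 intron was 19, in intron 1 of Cadm2. Introns with a cluster had a median length of 14.9 kb, and first introns held 203 of the clusters and second introns 137. The nearest exon of the strand was a median of 5.76 kb away (quartiles 0.928 and 28.9 kb, maximum 419.5 kb). Within 300 nt of an exon lay 11.3% of the clusters, against 20.5% in sparsely clustered labels and 4.74% of the enzyme-only clusters. Of the 1399, 4 overlapped an annotated exon although their label named none.

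UGCAUG, searched on the strand of the gene, was in 163 clusters (11.7%, 95% Wilson interval 10.1 to 13.4), and within 100 nt of 29.5% and within 200 nt of 39.2%. In sparsely clustered introns it was in 90 of 896 (interval 8.24 to 12.2%), in clusters with an exon in the label in 6.03%, and in the enzyme-only clusters chosen by the same rule in 1.82% (0.992 to 3.32). Of all windows of the same lengths in introns of their own host genes 2.49% held the motif. Without the clusters of Rbfox1, Celf2 and Dpp10 the share was again 11.7% (148 of 1263). The motif was in clusters of 99 of the 209 labels, 120 clusters held it once, 28 held 2 copies and 15 held 3 or more, up to 5 in Map3k13 and Ncoa2. These shares belong to clusters that were chosen by their edits, so they are given without a test.

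The share with UGCAUG was larger in clusters with more edited reads. It was found in 5.21% of the 384 clusters with at most 2 edited reads in RBFOX2-INSCRIBE libraries, 8.17% of the 661 with 3 to 5, 14.8% of the 189 with 6 to 9, 35.8% of the 120 with 10 to 19 and in 18 of the 45 (interval 27.0 to 54.6%) with 20 or more. More edited clusters were also longer, with median lengths of 45, 45, 75, 105 and 180 nt in that order. Windows of the same lengths held the motif in 1.66%, 2.03%, 3.08%, 4.64% and 7.74%. Both the observed share and the share of windows thus increased from class to class.

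Around the motif, edits per cytosine were most frequent at the base before it and rare inside it. In the 163 clusters, 78 cytosines stood directly before UGCAUG, and 49 of them (62.8%, 51.7 to 72.7) were edited in RBFOX2-INSCRIBE libraries, with 164 edited reads, against 4 edited reads in enzyme-only slices and 2 in buffer-only slices. Of the 231 cytosines inside the motif 12 were edited (5.19%, 3.00 to 8.86), and of the 3160 others in these clusters 26.3%, with 1360 edited reads. The base before a cytosine differs between these places. The C inside the motif follows G, and other cytosines after G were edited in 9.82% (7.84 to 12.2). After A or U, 73.7% (61.0 to 83.4) of the 57 cytosines directly before the motif were edited, compared with 40.7% of 1698 elsewhere. In clusters without the motif 19.3% of 20876 cytosines were edited. RBFOX2-INSCRIBE edits chose the clusters, so nothing is read from the contrast with the controls, and these shares were not tested.

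**Figure D3:**
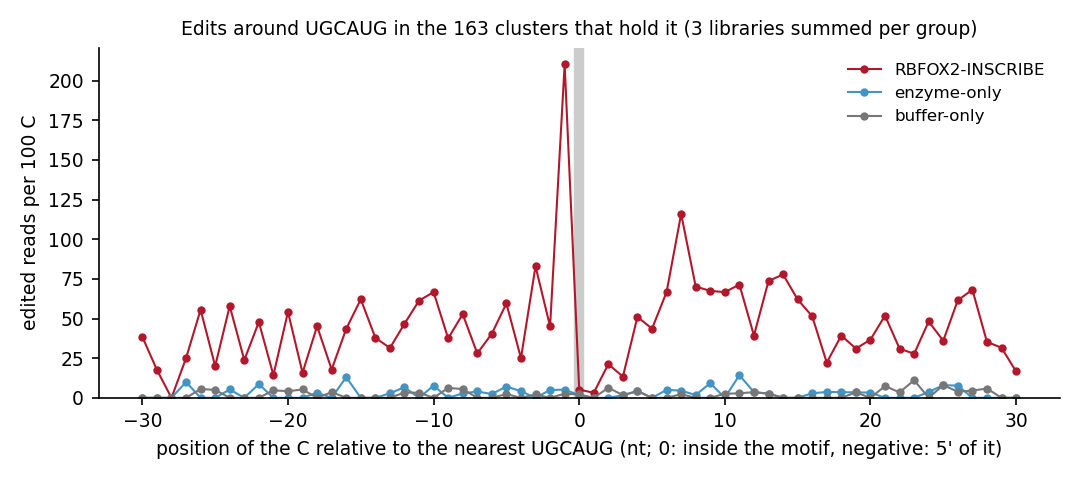
Edited reads per 100 cytosines (y axis) by position of the C relative to the nearest UGCAUG in nt (x axis, negative is 5′ of the motif, grey band is the motif) in the 163 clusters that hold it, 3 libraries summed per group. RBFOX2-INSCRIBE peaks at the base before the motif, with 164 edited reads at 78 cytosines.

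Across the 9 libraries, edited reads in the 1399 clusters numbered 2257, 2094 and 3180 in RBFOX2-INSCRIBE slices, 421, 440 and 383 in enzyme-only slices and 458, 348 and 342 in buffer-only slices. The mean of RBFOX2-INSCRIBE was 6.05 times that of enzyme-only libraries, and the mean of enzyme-only was 1.08 times that of buffer-only libraries. The libraries differed in their totals, with 295672 to 339567 edited reads at kept sites in RBFOX2-INSCRIBE slices, 267277 to 290808 in enzyme-only slices and 193252 to 262593 in buffer-only slices. Scaled to these totals (CPM), the clusters took 6671, 6167 and 10755 edited reads in RBFOX2-INSCRIBE slices, 1528, 1513 and 1433 in enzyme-only slices and 1744, 1736 and 1770 in buffer-only slices. On this scale the enzyme-only libraries lay below all buffer-only libraries. The Nova1 cluster alone held 86, 83 and 63 unscaled edited reads in enzyme-only slices and 141, 66 and 78 in buffer-only slices. Without that cluster the enzyme-only and buffer-only libraries overlapped on the CPM scale. RBFOX2-INSCRIBE replicate 3 was the highest on both scales, and it is the library whose cluster edges the list carries.

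At least 1 edited read was present in 1095, 963 and 1396 of the clusters in RBFOX2-INSCRIBE slices (78.3%, 68.8% and 99.8%), in 222, 220 and 218 in enzyme-only slices and in 197, 176 and 179 in buffer-only slices. Reads in all 3 RBFOX2-INSCRIBE libraries were found in 811 clusters, and 670 (47.9%) had none in any of the 6 control libraries. Every RBFOX2-INSCRIBE library was above every enzyme-only library in 551 clusters (39.4%), beside 31.4% of all 5031 clusters of the list. As these edits chose the clusters, nothing is read from that difference. Every enzyme-only library was above every buffer-only library in 6 clusters (0.429%), beside 0.875% of all clusters. In 903 clusters all 3 enzyme-only libraries had 0 edited reads. Shares over all 5031 clusters were not taken for the 811, 670 and 903. Background clusters had been removed from the list, and the median cluster had 3 edited reads over the RBFOX2-INSCRIBE libraries. Nothing is therefore read from the clusters with 0 edited reads in controls.

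**Figure D4:**
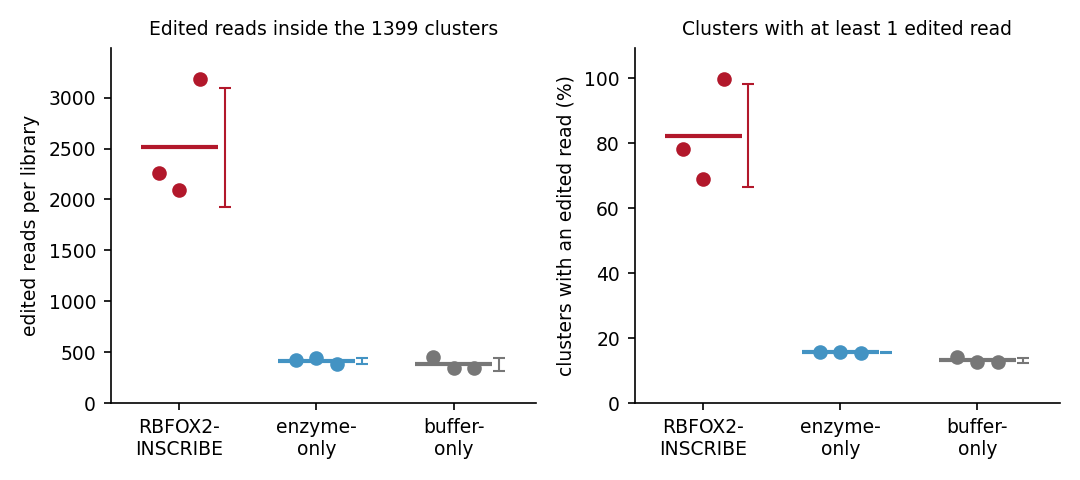
Edited reads in the 1399 intronic clusters, and percent of these clusters with at least 1 edited read (y axes, starting at 0), in each of the 9 libraries (points), with the mean of each group (line) and its SD (bar). The 3 RBFOX2-INSCRIBE libraries, at 2094 to 3180 edited reads, sit above the enzyme-only (383 to 440) and buffer-only libraries (342 to 458).

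The replicate lists and the control lists were also compared with the clusters directly. A cluster called in the library itself overlapped 1395, 1170 and 1399 of the 1399 in RBFOX2-INSCRIBE slices, 280, 293 and 306 in enzyme-only slices and 263, 237 and 233 in buffer-only slices. In RBFOX2-INSCRIBE replicate 2 the deposited list thus lacked 229 clusters that the intersected list holds. Of the 1399, 40 (2.86%) overlapped an intronic cluster of the cleaned enzyme-only list, which is 3.50% of that list's 1144, and 21 overlapped a cluster of the buffer-only intersected list. Host genes were shared more often than places: 67 hosts also carried enzyme-only clusters chosen by the same rule, 31.9% of the RBFOX2-INSCRIBE hosts and 75.3% of the enzyme-only hosts.

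Edited cytosines in the clusters mostly followed A or U in RBFOX2-INSCRIBE libraries (78.4%, 76.4% and 79.0% of sites), less so in enzyme-only slices (62.8%, 62.8% and 66.4%) and buffer-only libraries (59.8%, 56.7% and 60.0%). The groups did not overlap between RBFOX2-INSCRIBE and either control. As RBFOX2-INSCRIBE edits chose the clusters, nothing is read from that separation. Outside the clusters RBFOX2-INSCRIBE overlapped enzyme-only in this measure, as given below. The sites in clusters were covered by medians of 30, 35 and 24 reads in RBFOX2-INSCRIBE slices, 28, 29 and 27 in enzyme-only slices and 40, 29 and 31 in buffer-only slices, so cover did not separate the groups.

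Sites outside every cluster of the intersected RBFOX2-INSCRIBE list lay in none of the chosen clusters. They can still lie in clusters called in single libraries, and the host genes were chosen by clusters of RBFOX2-INSCRIBE libraries. In the introns of the host genes these sites allow tests between libraries. Within 100 nt of UGCAUG lay 11.3%, 10.5% and 11.5% of these sites in RBFOX2-INSCRIBE slices (mean 11.1% ± 0.557 SD, n = 3), 7.97%, 8.07% and 8.08% in enzyme-only slices (8.04% ± 0.0645) and 7.52%, 7.78% and 7.97% in buffer-only slices (7.76% ± 0.224). RBFOX2-INSCRIBE exceeded enzyme-only by 3.07 percentage points without overlap (exact two-sided permutation test, p = 0.1, the smallest that 3 against 3 libraries can give). Enzyme-only and buffer-only libraries overlapped, with a difference of 0.281 points (exact p = 0.2). With sites within 500 nt of a cluster of that list left out, an alternative chosen after seeing the data, RBFOX2-INSCRIBE was higher by 2.71 points (exact p = 0.1). The excess was not particular to the host genes: in introns of other genes the shares were 10.8%, 10.1% and 10.9% in RBFOX2-INSCRIBE slices, 7.61%, 7.69% and 7.78% in enzyme-only slices and 7.64%, 7.51% and 7.54% in buffer-only slices.

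Clusters called per library in these introns gave the same order. With library clusters that overlap the 1399 left out, because those share edits with the rule, UGCAUG was in 2.85%, 2.68% and 3.05% of them in RBFOX2-INSCRIBE slices (2.86% ± 0.19 SD), 1.77%, 1.91% and 1.87% in enzyme-only slices (1.85% ± 0.07) and 1.66%, 1.81% and 1.59% in buffer-only slices. RBFOX2-INSCRIBE exceeded enzyme-only by 1.01 points (exact permutation test, p = 0.1, n = 3 each). With them included, the shares were 3.14% ± 0.22 in RBFOX2-INSCRIBE slices and 1.90% ± 0.07 in enzyme-only slices. The libraries' own lists held 36944 to 44974 clusters in these introns in RBFOX2-INSCRIBE slices and 30748 to 34747 in enzyme-only libraries. Sites outside the intersected RBFOX2-INSCRIBE list numbered 41974 to 51770 in RBFOX2-INSCRIBE slices and 34775 to 39494 in enzyme-only slices.

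The base before the edited C separated the 2 controls instead. Outside the clusters, A or U preceded it at 64.2%, 65.2% and 66.7% of sites in enzyme-only libraries (65.3% ± 1.24) and at 56.7%, 56.4% and 56.4% in buffer-only slices (56.5% ± 0.182), a difference of 8.84 points (exact p = 0.1). RBFOX2-INSCRIBE had 68.6%, 64.7% and 69.1%, which overlapped enzyme-only (difference 2.08 points, exact p = 0.3). At the C directly before UGCAUG, looked at after its editing inside the clusters had been seen and therefore given without a test, 107, 80 and 87 sites were listed in RBFOX2-INSCRIBE slices, 29, 29 and 22 in enzyme-only slices and 14, 17 and 14 in buffer-only slices. Per 10000 sites these were 21.8, 15.5 and 20.7 in RBFOX2-INSCRIBE slices, 8.34, 7.34 and 5.86 in enzyme-only slices and 3.57, 6.07 and 4.75 in buffer-only slices. Sites at the C inside the motif did not show that order (16.3, 16.6 and 14.3 in RBFOX2-INSCRIBE slices, 16.7, 19.7 and 15.4 in enzyme-only slices, 20.4, 20.3 and 21.7 in buffer-only slices, per 10000 sites).

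**Figure D5:**
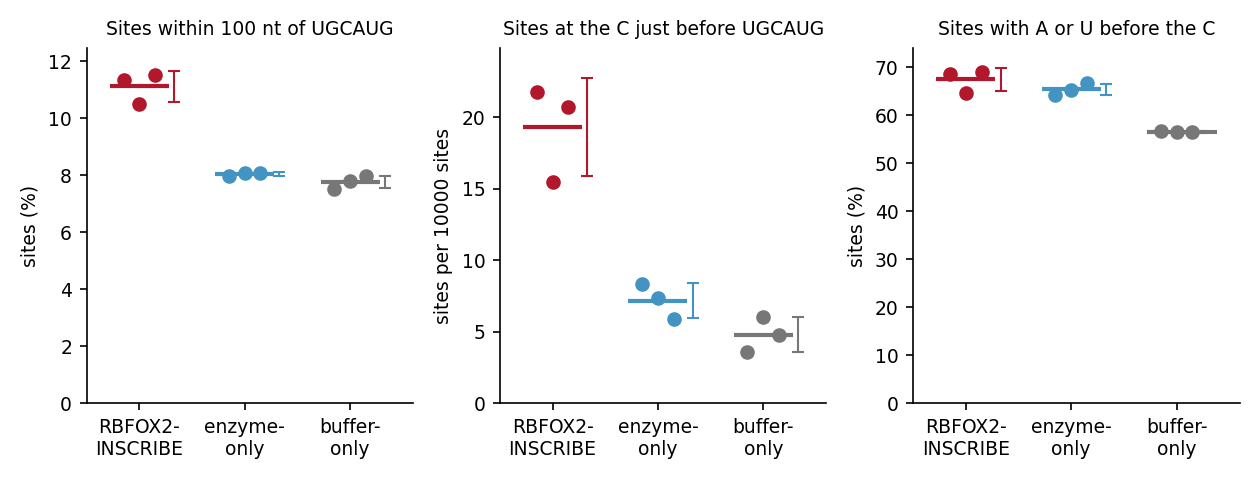
Sites in introns of the host genes outside every cluster of the intersected RBFOX2-INSCRIBE list, per library (points), with group mean (line) and SD (bar): percent within 100 nt of UGCAUG, sites at the C directly before UGCAUG per 10000 sites, and percent with A or U before the edited C (y axes, starting at 0). RBFOX2-INSCRIBE libraries (10.5% to 11.5%) stand above the others near the motif, and buffer-only libraries (56.4% to 56.7%) stand below the others for A or U.

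Edited reads outside the clusters were also compared gene by gene, with levels in CPM, which are scaled here to each library's edited reads assigned to genes and by TMM. The host genes had been picked by clusters of the same RBFOX2-INSCRIBE libraries. Their counts are therefore a description beside the share over all genes, and not an independent test of the clusters. Against enzyme-only, 10 of 207 host genes tested were higher in RBFOX2-INSCRIBE slices and 0 were lower (edgeR quasi-likelihood test, adjusted p under 0.05), beside 0.599% and 0% of the 6345 genes tested. At an unadjusted p under 0.05, 79 host genes were higher and 1 was lower, beside 6.92% higher and 4.48% lower over all genes. DESeq2 called 25 host genes higher and 0 lower, beside 0.725% and 0% of all genes. The median log2 difference of the host genes was 0.21, against -0.01 over all genes. Every RBFOX2-INSCRIBE library was above every enzyme-only library in 79 host genes and below in 0, beside 8.42% above and 7.5% below over all genes.

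Among the called host genes, Cacna2d3, Pde10a and Tenm2 had the smallest adjusted p. Cacna2d3, an auxiliary calcium channel subunit, had 1247, 1435 and 1642 CPM in RBFOX2-INSCRIBE slices, 709, 878 and 956 in enzyme-only slices and 944, 779 and 940 in buffer-only slices (log2 difference to enzyme-only 0.76 ± 0.12 SE, edgeR adjusted p = 0.000128). Pde10a, a phosphodiesterase of striatal neurons, had 1310, 1558 and 1803 CPM in RBFOX2-INSCRIBE slices, against 778, 1025 and 1023 in enzyme-only slices and 970, 1057 and 1263 in buffer-only slices (0.72 ± 0.12, edgeR adjusted p = 0.000277). Tenm2 had 2018, 2446 and 2409 CPM in RBFOX2-INSCRIBE slices, against 1345, 1608 and 1623 in enzyme-only slices and 1732, 1837 and 1964 in buffer-only slices (0.59 ± 0.10, edgeR adjusted p = 0.000337). In these 3 genes RBFOX2-INSCRIBE did not overlap either control. Cntn5, a contactin adhesion gene, had 523, 675 and 698 CPM in RBFOX2-INSCRIBE slices, 341, 321 and 360 in enzyme-only slices and 564, 359 and 442 in buffer-only slices (0.89 ± 0.16, edgeR adjusted p = 0.000398), so it overlapped buffer-only. Also called were the postsynaptic scaffold gene Shank1 (log2 difference 0.75), the adhesion gene Kirrel3 (0.47), the heparan sulfate sulfotransferase gene Hs6st3 (0.59) and the ADP-ribosyl hydrolase gene Macrod2 (0.55). Cacna2d3, Pde10a and Tenm2 kept their call under all 17 alternative settings, and Cntn5 lost it with sites of at least 20 covering reads (edgeR adjusted p = 0.14). The other genes named here lost it when some library was left out, Shank1 without RBFOX2-INSCRIBE replicate 1 (edgeR adjusted p = 0.103) and Kirrel3, Hs6st3 and Macrod2 without enzyme-only replicate 1, among others (edgeR adjusted p = 0.0758 for Macrod2 to 0.209 for Kirrel3).

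The RBFOX genes did not pass this test. Rbfox1 had 6979, 7083 and 7496 CPM in RBFOX2-INSCRIBE slices, 5438, 6112 and 6017 in enzyme-only slices and 6824, 6303 and 7477 in buffer-only slices (log2 difference 0.30 ± 0.08 to enzyme-only, edgeR adjusted p = 0.0647). The values for Rbfox3 were 0.39 ± 0.12 (edgeR adjusted p = 0.128) and for Rbfox2 0.36 ± 0.13 (edgeR adjusted p = 0.234). Ppp3ca (0.44 ± 0.12, edgeR adjusted p = 0.0514) and Klc1 (0.25 ± 0.21, edgeR adjusted p = 0.742) also missed the threshold. DESeq2 called Rbfox1 (DESeq2 adjusted p = 0.00475) and Ppp3ca (DESeq2 adjusted p = 0.00816), and without enzyme-only replicate 2 Rbfox3 passed (edgeR adjusted p = 0.0448).

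Enzyme-only libraries were set against buffer-only libraries in the same way, and both comparisons share the enzyme-only slices. Of 207 host genes, 2 were higher in enzyme-only slices and 5 were lower (edgeR, adjusted p under 0.05), beside 0.252% of all genes in each direction, with a median log2 difference of -0.18 against -0.01 over all genes. The 2 higher were the splicing regulator gene Qk (774, 695 and 706 CPM in enzyme-only slices, 444, 434 and 414 in buffer-only slices, log2 difference 0.75 ± 0.15, edgeR adjusted p = 0.00925) and Purg (0.89 ± 0.20, edgeR adjusted p = 0.027). The 5 lower included Dlgap1, a postsynaptic scaffold gene (1059, 1225 and 1373 CPM in enzyme-only slices, 1993, 1600 and 1866 in buffer-only slices, -0.58 ± 0.12, edgeR adjusted p = 0.00925), and also Fam155a, Adgrb3, Magi2 and Klhl29. Without buffer-only replicate 1, 0 genes were called (edgeR adjusted p = 0.133 for both Qk and Dlgap1). Every RBFOX2-INSCRIBE library was above every buffer-only library in 39 of the 207 host genes and below in 16, beside 8.21% above and 7.12% below over all genes. Of the 10 genes called against enzyme-only, 6 lay above all buffer-only libraries without overlap, and all 10 had the higher mean.

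By gene list, calls against enzyme-only were few and all upward, as were all calls over the 6345 genes tested (0.599% higher and 0% lower). Neurexin, neuroligin and teneurin adhesion genes had 2 of 21 tested higher (median log2 difference 0.19), immunoglobulin and contactin adhesion genes 2 of 31 (0.25), calcium channel genes 2 of 10 (0.26), and calcium release, pump and calcineurin genes 2 of 21 (0.44). Nuclear long non-coding RNAs also had 2 of 11 higher, with a median of -0.06. Cyclic nucleotide phosphodiesterases and kinases had 2 of 17 (0.24) and sodium and potassium channel genes 2 of 22 (0.18). Presynaptic and vesicle genes had 0 of 18 (0.19) and RNA-binding genes 0 of 21 (0.07). The median over all genes tested was -0.01. None of the glial or endothelial markers tested was called. Summed edits in the 10 oligodendrocyte markers were 530 to 612 CPM in RBFOX2-INSCRIBE slices, 711 to 831 in enzyme-only slices and 603 to 781 in buffer-only slices, so enzyme-only lay above RBFOX2-INSCRIBE without overlap. Sums in the 10 astrocyte markers were 1690 to 1948 in RBFOX2-INSCRIBE slices, 1847 to 1991 in enzyme-only slices and 1436 to 1516 in buffer-only slices, so both enzyme-treated groups lay above buffer-only. Sums in the 8 microglia markers were 195 to 210 in RBFOX2-INSCRIBE slices, 213 to 287 in enzyme-only slices and 183 to 259 in buffer-only slices. Sums in the 7 endothelial markers were 233 to 318 in RBFOX2-INSCRIBE slices, 308 to 344 in enzyme-only slices and 221 to 264 in buffer-only slices. Sums in the 8 neuron markers, 3911 to 4170 in RBFOX2-INSCRIBE slices, 3719 to 4142 in enzyme-only slices and 3531 to 4021 in buffer-only slices, overlapped in all 3 groups. The part of cell composition in the differences between groups was not tested.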

How the data were processed

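Libraries were made from ribosomal RNA-depleted RNA with a stranded kit. The authors trimmed reads with cutadapt, aligned them with STAR (the notes name 2.4.0 and 2.5.2) to mm10, called C-to-U sites with SAILOR and clusters with FLARE, intersected the replicates with bedtools and removed background clusters. The deposited site lists give counts of edited and covering reads, the fraction edited and a confidence score. The deposited cluster lists give the depth as a signal, a score and other values of the merged windows. The p-values of those windows, deposited by the authors, were not used.

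The study's filter was used, which asks of a site a score over 0.5 and an edited fraction under 0.8. Only sites with an edited read are listed, so cover elsewhere is unknown. Clusters were placed on GENCODE M21 genes on their strand where a gene of the label covered them. Sites in more than 1 gene of a strand were left out of gene counts.

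The members and lists were chosen with earlier results of these data known. Library shares were compared by exact two-sided permutation over 3 against 3 libraries, and shares of clusters have 95% Wilson intervals, which cover counting error only. Edited reads per gene, outside all clusters of the intersected RBFOX2-INSCRIBE list, were tested with edgeR 4.0.16 (quasi-likelihood, TMM, filterByExpr, Benjamini-Hochberg) in 1 fit of the 9 libraries. DESeq2 1.42.0 was an alternative. Genes named are called host genes, up to 10 per direction, the RBFOX genes, and Ppp3ca and Klc1. The 12 labels with the most clusters, the 12 most edited clusters and motif-bearing clusters for their letters were listed by rule, a few of which are not reported here, and further genes were chosen after their values were seen. On simulated counts of 6003 genes for RBFOX2-INSCRIBE against enzyme-only, 58% of 2-fold and 95% of 4-fold changes were recovered, with 3.77% false calls. HEK293XT libraries were not used here, and 0 brain columns were left unused for want of a sample.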

Additional observations from a re-analysis of the deposited data

How the results depend on the processing

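The numbers of edited reads and of calls limit most values, and 3 libraries a group cannot give an exact p under 0.1. Edited reads in the clusters in RBFOX2-INSCRIBE over enzyme-only libraries were 6.05-fold (5.25 to 6.56 leaving out each library). The ratio of enzyme-only over buffer-only, 1.08, was 1.00 with sites of at least 20 covering reads, 0.852 in CPM of the library's edited reads, which turns its direction, 1.17 without the Nova1 cluster (chosen after seeing the data) and 1.03 to 1.20 leaving out each library. The median gap, 11.8 kb, was 5.09 kb within the same intron. UGCAUG was in 11.7% of the clusters, in 29.5% with 100 nt and in 39.2% with 200 nt added on each side. Clusters that overlap a cluster of an enzyme-only library, 293 on average, were 153.3 when the overlap had to cover most of the cluster.

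Genes called between RBFOX2-INSCRIBE and enzyme-only (38, of which 10 host genes) numbered 120 (27) with every listed site, 59 (18) with cluster sites included and 12 to 51 (5 to 14) leaving out each library, the lowest without enzyme-only replicate 1. With DESeq2 they numbered 46 (25), and with sites of at least 20 covering reads 40 (21), of 3950 genes tested. Between enzyme-only and buffer-only (32, of which 7), they numbered 8 (4) with DESeq2, 116 (13) with every listed site, 0 with at least 20 covering reads, and 0 to 40 (0 to 9) leaving out each library. They were 0 without buffer-only replicate 1, 13 without buffer-only replicate 2, 8 without buffer-only replicate 3, and 5, 6 and 16 without enzyme-only replicate 1, 2 or 3. Host genes called were 4 with no filter on low counts. The cause was not tested.

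Leaving out each library moved the tested differences little: 1.14 to 1.36 points for all library clusters with UGCAUG, 2.86 to 3.39 for sites near it, and 8.19 to 9.42 for A or U in enzyme-only against buffer-only. The replicate numbers did not pair the libraries (correlations of the same numbers -0.0533 to 0.0888), and with the number as a replicate block 47 (14 host) genes were called between RBFOX2-INSCRIBE and enzyme-only and 33 (8) between enzyme-only and buffer-only, and the permutation within numbers gave p = 0.25, its smallest, for sites near UGCAUG.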
